A study of Mus musculus with 22 samples.

Results

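The respiratory chain and ATP synthase are built from proteins of both genomes of the cell, and 106 of the 49671 genes in the count table encode them or factors that share their names. They were chosen by symbol: the mt-Nd, mt-Co, mt-Atp and mt-Cytb mRNAs of mitochondrial DNA, and the nuclear Nduf, Sdha to Sdhd, Uqcr, Cox4 to Cox8 and Atp5 genes, with 11 pseudogenes left out. Of the 106, 13 are mitochondrially encoded mRNAs, 83 are nuclear genes of subunits, and 10 are nuclear genes of factors (Ndufaf1 to Ndufaf8, Cox7a2l and Atp5s). Ndufa4 and Ndufa4l2, named after complex I, were counted with complex IV, where the Ndufa4 protein is now placed.

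The 22 libraries came from mouse TH2 cells, helper T cells polarized in culture towards the type 2 cytokine programme, and the series asked what calcitriol does to their transcripts. The calcitriol group is 11 libraries from cells given 100 nM of this active vitamin D hormone during the final 24 hours. The control group is 11 libraries from cells given 2% ethanol, its solvent. All cells carried the wild-type genotype and were harvested on day 5, and the donors were Balb/c mice of 6 to 8 weeks whose line was kept on 1 of 3 diets, with 400, 1000 or 4000 IU of vitamin D3 per kg, for 2 generations. Which mouse, sex, diet or culture a library came from is not labelled, nor whether the calcitriol cultures held the same ethanol, so the spread behind a p-value here is that between libraries and may be technical in part.

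Total counts ran from 3214171 to 20258430 per library with a median of 7504710. Replicates 1 and 2 of both groups lay apart from the other libraries on component 2 of the 500 most variable genes. Some libraries of a group resembled each other in pairs, but calcitriol replicates 9, 10 and 11 and control replicates 1, 2 and 9 had no such partner. Replicates of the same number, given in accession order, mostly had similar scores on component 2 in both groups. For respiratory chain genes, calls were checked without these 4 libraries and with resembling libraries summed to 7 samples per group. Where such a call was lost, the adjusted p so obtained is given beside it. Calls of other genes were not checked in this way, so a single adjusted p beside them does not show that they held. The 11 TH2 and T cell markers summed to 2669 to 2892 CPM with calcitriol and 2559 to 3080 CPM in controls. Of the 10 with enough counts to be tested, 3 were higher and 2 lower, against 16.1% higher and 15.5% lower over all genes tested. The overlapping sums thus do not show that each marker was unchanged. Summed markers of mast cells, basophils, granulocytes, red cells and platelets were at or near 0. The 5 B cell markers summed to 1.56 to 5.43 CPM with calcitriol and 1.69 to 7.16 CPM in controls, and the 8 myeloid markers to 9.13 to 17.4 CPM with calcitriol and 8.68 to 11.4 CPM in controls. The 5 markers of CD8 and NK cells summed to 29.8 to 174 CPM with calcitriol and 8.54 to 32.4 CPM in controls, almost all of it Gzma, while Cd8a was near 0 and Ncr1 at 0, and their part in the results was not tested.

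Electrons enter the chain at complex I, which oxidizes NADH, or at complex II, which oxidizes succinate, pass through coenzyme Q to complex III, then through cytochrome c to complex IV, where oxygen is reduced. Proton pumping by complexes I, III and IV drives complex V, the ATP synthase. Complex II is wholly nuclear-encoded, whereas the core subunits of the other complexes are split between the genomes, and mitochondrial transcripts are cut out of long polycistronic precursors. T cells raise both glycolysis and respiration when activated, and vitamin D acts through a nuclear receptor that these cells can express.

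Calcitriol raised a few respiratory chain mRNAs, lowered a few others and left most within a small distance of the controls. Of the 106 genes, 94 had enough counts to be tested, and 19 of these, 20.2%, passed edgeR's quasi-likelihood test at an adjusted p of 0.05: 9 were higher and 10 lower with calcitriol. Across all 11905 genes tested, 31.5% passed, 16.1% higher and 15.5% lower. The median log2 change was -0.02 for the chain and -0.01 for all genes, and the median size of the change regardless of sign was 0.08 for the chain and 0.15 for all genes. In 3 genes, Ndufb11, Ndufa1 and Cox7a2l, the 11 calcitriol libraries lay wholly above the 11 controls, and groups did not overlap in either direction for 4.36% of all genes. Fewer cells of a type and less RNA per cell cannot be told apart in such bulk libraries.

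**Figure D1:**
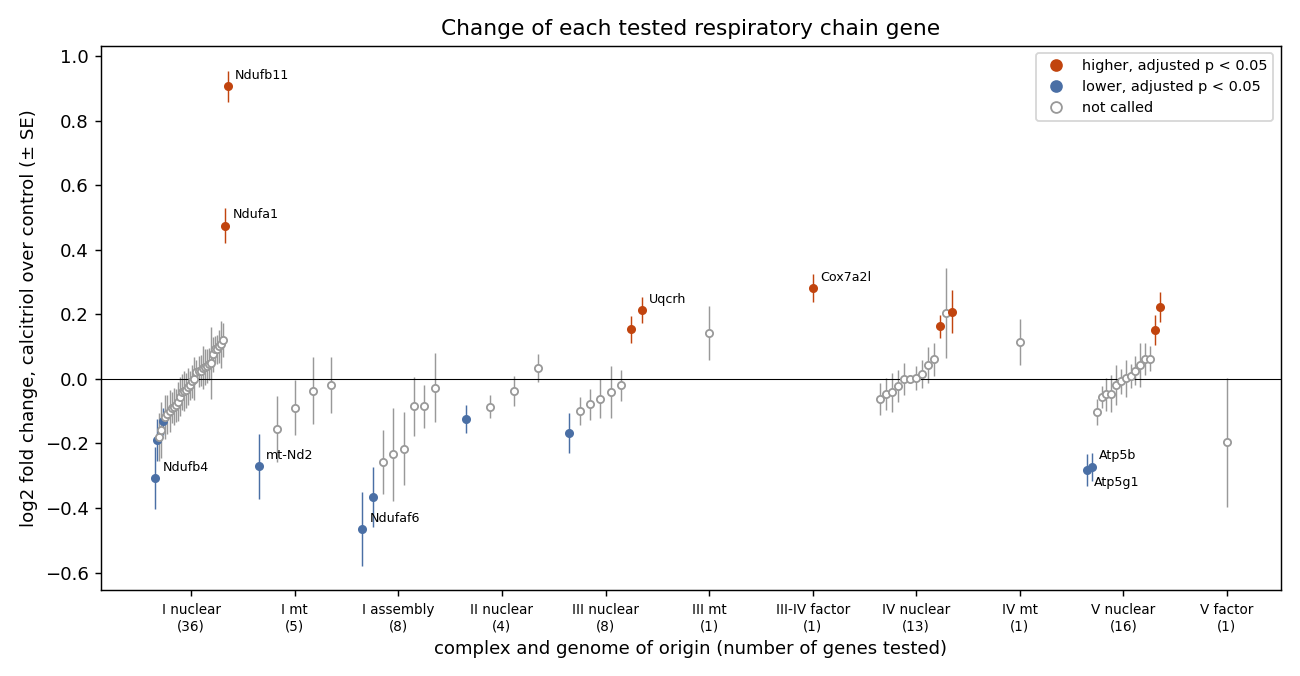
Log2 fold change of calcitriol over control (y axis, ± SE) for each of the 94 respiratory chain genes tested, grouped along the x axis by complex and genome of origin; filled points passed an adjusted p of 0.05 (edgeR, 11 libraries per group). Ndufb11 at 0.91 and Ndufa1 at 0.48 stand above a field in which most genes lie within 0.2 of zero. All 8 Ndufaf points are below zero, as are 6208 of all 11905 genes tested.

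The promoters of 4 changed nuclear genes are shown here because 2 of them rose most, 1 is the highest-level gene that fell and 1 holds a motif of a family known to serve respiratory genes. They run from 250 bases before to 50 bases after the annotated start and come from RefSeq on the mouse build GRCm38.p6, all 5′ to 3′ on the gene's own strand. Capitals mark a match to CCGGAAG, the core bound by ETS factors such as the GABP complex, or to its reverse complement. The windows are chrX:20617570-20617869 on the minus strand for Ndufb11, chrX:37191189-37191488 on the minus strand for Ndufa1, chr10:128083057-128083356 on the plus strand for Atp5b and chr4:116075021-116075320 on the minus strand for Uqcrh.
Ndufb11: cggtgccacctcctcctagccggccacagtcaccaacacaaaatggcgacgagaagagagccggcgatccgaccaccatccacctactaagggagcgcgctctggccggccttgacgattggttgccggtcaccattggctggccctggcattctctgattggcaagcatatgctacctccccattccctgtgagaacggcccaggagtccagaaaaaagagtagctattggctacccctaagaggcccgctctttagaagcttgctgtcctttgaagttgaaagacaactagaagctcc
Ndufa1: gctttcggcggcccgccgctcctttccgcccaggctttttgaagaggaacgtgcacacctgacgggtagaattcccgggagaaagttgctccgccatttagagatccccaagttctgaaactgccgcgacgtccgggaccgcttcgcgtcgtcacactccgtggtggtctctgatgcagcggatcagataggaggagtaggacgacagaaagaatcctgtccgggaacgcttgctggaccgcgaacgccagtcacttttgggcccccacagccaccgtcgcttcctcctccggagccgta
Atp5b: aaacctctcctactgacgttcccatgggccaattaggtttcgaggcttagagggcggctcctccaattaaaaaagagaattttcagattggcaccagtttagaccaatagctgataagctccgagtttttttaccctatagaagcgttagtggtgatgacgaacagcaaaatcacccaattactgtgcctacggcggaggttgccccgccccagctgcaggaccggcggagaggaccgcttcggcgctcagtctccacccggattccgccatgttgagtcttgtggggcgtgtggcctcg
Uqcrh: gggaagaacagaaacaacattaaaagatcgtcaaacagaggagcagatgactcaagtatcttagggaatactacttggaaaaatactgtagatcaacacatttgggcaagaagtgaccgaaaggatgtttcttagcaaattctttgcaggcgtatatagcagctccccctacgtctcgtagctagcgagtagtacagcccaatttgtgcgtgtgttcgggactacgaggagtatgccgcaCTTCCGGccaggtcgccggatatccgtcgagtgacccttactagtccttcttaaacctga
Of the 106 genes, 76 had a promoter in the RefSeq table. The ETS core was found on either strand in 18 of these 76, 23.7%, and in 9.93% of the promoters of all 27025 genes in the table. CGCATGCG, the palindromic core of nuclear respiratory factor 1, was in 11 of 76, 14.5%, against 2.07% of all promoters, and AAGATGGCG, a core of YY1, was in 8 of 76, 10.5%, against 1.64%. A spaced direct repeat of the kind bound by the vitamin D receptor, DR3, was in 0 of 76 and in 12 of all 27025 genes, 0.0444%. A pattern this rare would be missing from most sets of 76 promoters, so the 0 does not show that receptor sites are lacking. Of the 76 genes with a promoter, 14 passed the test for calcitriol against control. None of the 11 genes with the NRF1 core passed it, and of the 18 with the ETS core, Uqcrh and Atp5e rose and Sdhd fell. With so few genes per motif, whether calls and motifs go together was not tested. Ndufa9 and Ndufs7, both lower with calcitriol, were the changed genes with the YY1 core. An ETS and a YY1 match can share letters, since the end of one core can begin the other, and the counts describe letters in a window, not binding.

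Complex I is the largest of the complexes, and 36 of its nuclear subunit genes were tested: 2 rose and 3 fell. Both that rose are accessory subunits of the membrane arm encoded on the X chromosome. Ndufb11 (ENSMUSG00000031059, chrX:20615326-20617619) ran from 229 to 279 CPM with a median of 248 in calcitriol libraries, against 117 to 152 CPM with a median of 136 in controls (CPM here and below is TMM-normalised CPM). It was higher by 0.91 ± 0.05 (SE) on the log2 scale (edgeR, adjusted p = 4.31e-14), and the lowest calcitriol library, replicate 2, lay far above the highest control, replicate 6. No other gene of the chain changed as much. Ndufb11 runs on the opposite strand from Rbm10, an RNA-binding protein gene, and they overlap by 117 bases at their starts. Rbm10 averaged 202 CPM with calcitriol and 174 CPM in controls, a smaller rise of 0.21 ± 0.05 (SE) on the log2 scale (edgeR, adjusted p = 0.00179). Stretches of 50 bases shared with other annotated genes, mainly the copy Gm6444, made up 17.5% of those in Ndufb11 transcripts. How reads of either kind were assigned is not given in the sources used here.

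Ndufa1 (ENSMUSG00000016427, chrX:37187588-37191163) ran from 53.8 to 69.4 CPM with a median of 64.4 with calcitriol, against 37.2 to 51.0 CPM with a median of 47.2 in controls. The groups did not overlap, and the difference was 0.48 ± 0.05 (SE) on the log2 scale (edgeR, adjusted p = 9.45e-08). Its neighbour Rnf113a1, which starts close by on the other strand, averaged 7.73 CPM with calcitriol and 7.70 CPM in controls. The third X-linked gene of the chain, Cox7b of complex IV, averaged 149 ± 11.1 CPM with calcitriol and 151 ± 12.5 CPM in controls (SD, n = 11 each; edgeR, adjusted p = 0.785). Of 379 X-linked genes tested, 62 were higher and 53 lower with calcitriol, with a median log2 change of 0.01. Although donors of both sexes are mentioned in the labels, Xist ran from 225 to 322 CPM with calcitriol and from 209 to 302 CPM in controls, and the Y-linked genes Ddx3y, Uty, Kdm5d and Eif2s3y were at or near 0 in all 22 libraries.

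The subunits of complex I that fell did so by less. Ndufb4, another accessory subunit of the membrane arm, ran from 7.27 to 11.4 CPM with a median of 9.19 with calcitriol, against 9.24 to 14.4 CPM with a median of 11.5 in controls. Its log2 change was -0.31 ± 0.10 (SE; edgeR, adjusted p = 0.0151), the groups overlapped, and 18.3% of its 50-base stretches were shared, mainly with the gene copy Ndufb4c. The Ndufb4 call was lost with libraries summed (edgeR, adjusted p = 0.0518) and with library quality weights (limma-voom, adjusted p = 0.0503). Ndufs7, which carries the iron-sulfur cluster next to the quinone site, changed by -0.19 (edgeR, adjusted p = 0.0245; 0.0544 without control replicate 7 and 0.0742 with libraries summed). Ndufa9, an accessory subunit beside that site, changed by -0.13 (edgeR, adjusted p = 0.0195; 0.0571 with libraries summed and 0.118 with no filter on low counts). The 11 Ndufs and Ndufv genes, which include those for the flavin- and iron-sulfur-bearing core of the peripheral arm, counted 0 higher and 1 lower, with a median log2 change of -0.03. Their summed level was 1147 ± 51.1 CPM with calcitriol and 1144 ± 46.2 CPM in controls (SD, n = 11 each). The single genes ran from -0.19 to 0.11, and the unscaled share of all counts was 0.112% ± 0.00364 with calcitriol and 0.117% ± 0.00387 in controls (SD, n = 11 each).

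The summed level of the 36 nuclear subunits of complex I averaged 3064 ± 116 CPM with calcitriol and 2922 ± 77.0 CPM in controls (SD, n = 11 each). Left without Ndufb11 and Ndufa1, the sum was 2748 ± 114 CPM with calcitriol and 2742 ± 72.1 CPM in controls, so that a difference of 141 CPM came down to 5.76 CPM. The subunit with the highest level per kilobase was Ndufa6, an accessory subunit, with 247 CPM per kilobase and a log2 change of 0.08 (edgeR, adjusted p = 0.315). As an unscaled share of all counts, the 36 genes held 0.298% in each group, because the TMM factors of control libraries were larger.

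**Figure D2:**
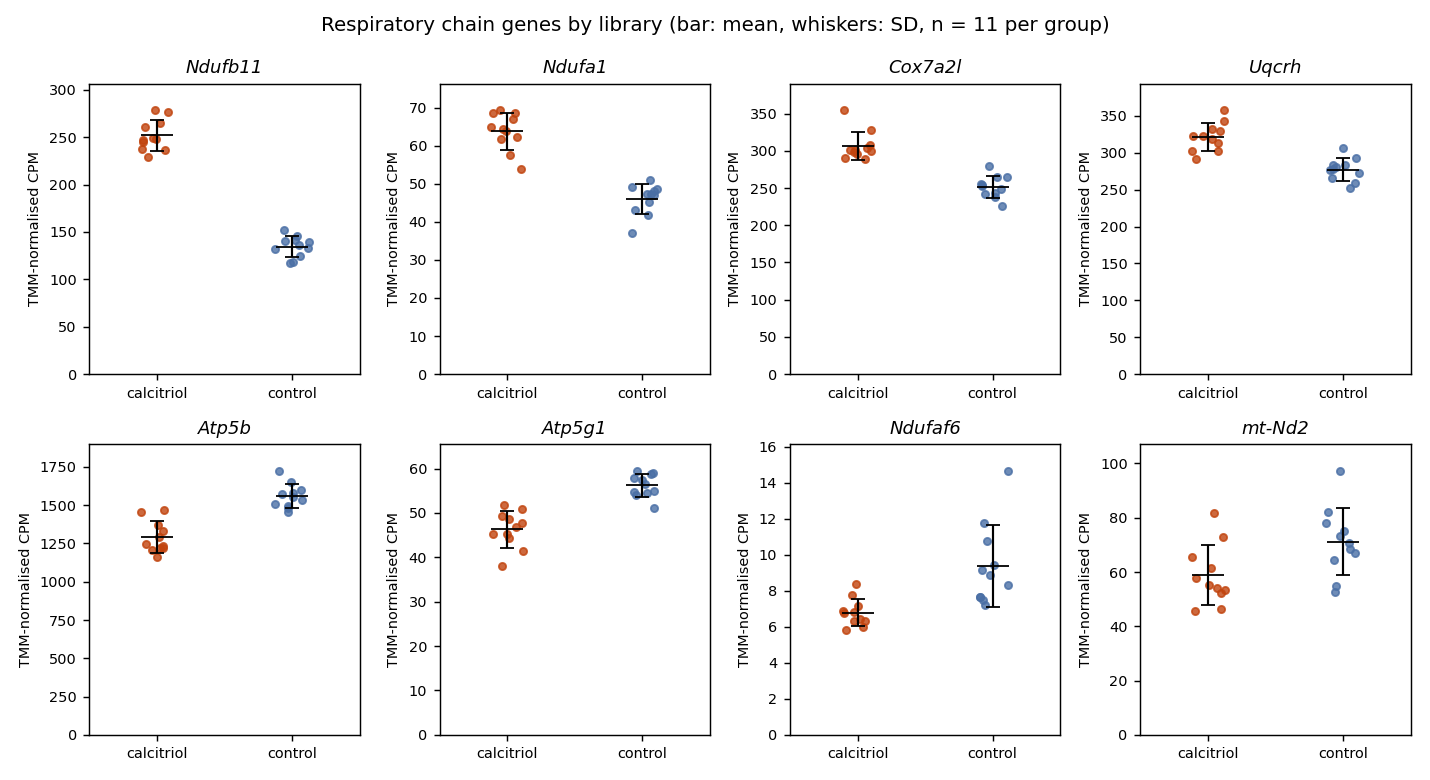
TMM-normalised CPM (y axis, from 0) of 8 respiratory chain genes in each library, calcitriol left and control right, with the mean and SD of 11 libraries per group. The calcitriol libraries lie wholly above the controls for Ndufb11, Ndufa1 and Cox7a2l, while Uqcrh, Atp5b, Atp5g1, Ndufaf6 and mt-Nd2 overlap between the groups.

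Assembly factors of complex I build the enzyme but are not part of it. All 8 Ndufaf genes had negative log2 changes, from -0.46 to -0.03 with a median of -0.22. Of all 11905 genes tested, 6208 had a negative change. Among the 8, 2 passed the test, 0 higher and 2 lower, which is 25.0% against 31.5% of all genes. Ndufaf6, a factor of early complex I assembly in human cells, ran from 5.80 to 8.39 CPM with a median of 6.76 with calcitriol, against 7.21 to 14.7 CPM with a median of 8.89 in controls. In 9 of 11 calcitriol libraries it lay below every control, and control replicate 2 was the highest library; the log2 change was -0.46 ± 0.11 (SE; edgeR, adjusted p = 0.00233). Ndufaf7, whose human protein is an arginine methyltransferase, ran from 8.86 to 13.2 CPM with calcitriol, median 10.9, against 11.8 to 20.5 CPM in controls, median 14.6. It fell by 0.37 on the log2 scale (edgeR, adjusted p = 0.00309). Ndufaf5, whose human protein hydroxylates NDUFS7, changed by -0.26 and narrowly missed the threshold (edgeR, adjusted p = 0.0501). The summed level of the 8 genes ran from 108 to 117 CPM with calcitriol and from 117 to 156 CPM in controls. Outside the naming rule of the chain, 1 of 8 further complex I assembly factors tested was lower and 0 higher, namely Nubpl, an iron-sulfur carrier (log2 change -0.33; edgeR, adjusted p = 0.0220).

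Complex II showed 1 lower gene of 4. Sdhd, a membrane anchor with part of the haem site, ran from 107 to 135 CPM with a median of 122 with calcitriol, against 123 to 140 CPM with a median of 131 in controls. The groups overlapped and the change was small, -0.12 ± 0.04 (SE; edgeR, adjusted p = 0.0289). The call was lost without any 1 of calcitriol replicates 5, 6, 10 and 11 or control replicate 5, with an adjusted p of up to 0.0602, and with libraries summed (edgeR, adjusted p = 0.0893). Timm8b, a mitochondrial import chaperone gene that starts beside Sdhd on the other strand, fell by 0.27 (edgeR, adjusted p = 0.000205). The flavoprotein Sdha changed by -0.09 (edgeR, adjusted p = 0.0676), and the iron-sulfur subunit Sdhb, the highest of the 4 per kilobase, by 0.03. Summed, the 4 genes gave 541 ± 11.6 CPM with calcitriol and 563 ± 16.5 CPM in controls (SD, n = 11 each).

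Of the 8 nuclear subunit genes of complex III, 2 rose and 1 fell. Uqcrh, the hinge protein that holds cytochrome c1, ran from 292 to 358 CPM with a median of 322 with calcitriol, against 252 to 306 CPM with a median of 278 in controls. It lay above every control in 8 of 11 calcitriol libraries and was higher by 0.21 ± 0.04 (SE; edgeR, adjusted p = 0.000209). Lrrc41, whose annotated start lies in the Uqcrh promoter window on the other strand, went the other way, with 48.9 CPM with calcitriol and 57.0 CPM in controls (log2 change -0.23; edgeR, adjusted p = 0.00465). Uqcrfs1, the Rieske iron-sulfur protein, was higher by 0.15 (edgeR, adjusted p = 0.00628; 0.0852 with libraries summed), and Uqcrq, a small subunit beside cytochrome b, fell by 0.17 on the log2 scale (edgeR, adjusted p = 0.0361). The Uqcrq call was lost without any 1 of 12 libraries, calcitriol replicates 4 to 7 and 9 to 11 or control replicates 1 and 5 to 8, with an adjusted p of up to 0.0656, and with libraries summed (edgeR, adjusted p = 0.0606). The core proteins Uqcrc1 and Uqcrc2 changed by -0.10 and -0.02 (edgeR, adjusted p = 0.0865 and 0.798).

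Cox7a2l, a relative of a complex IV subunit that joins complexes III and IV into a supercomplex, rose. It ran from 288 to 355 CPM with a median of 301 with calcitriol, against 226 to 279 CPM with a median of 253 in controls. The groups did not overlap, calcitriol replicate 4 being highest and control replicate 8 lowest, and the log2 change was 0.28 ± 0.04 (SE; edgeR, adjusted p = 7.37e-06). Some inbred mouse strains carry a shortened form of this protein, and these counts do not separate forms. Which form these Balb/c cells made was not examined here, and supercomplexes were not measured.

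Complex IV had 13 nuclear subunit genes tested, of which 2 rose and 0 fell. Cox4i1, the ubiquitous form of the regulatory subunit, ran from 362 to 422 CPM with a median of 388 with calcitriol, against 330 to 383 CPM with a median of 345 in controls. It was higher by 0.16 ± 0.04 (SE; edgeR, adjusted p = 0.000778), and it overlaps Emc8, on the opposite strand, by 352 bases; Emc8 averaged 14.7 CPM with calcitriol and 14.2 CPM in controls. Ndufa4 ran from 94.9 to 152 CPM with a median of 131 with calcitriol, against 98.4 to 121 CPM with a median of 113 in controls, and was higher by 0.21 ± 0.07 (SE; edgeR, adjusted p = 0.0176). Calcitriol replicate 3 lay below every control, replicates 4 and 5 lay among the controls, and replicates 1 and 2 were the highest. Without replicates 1 and 2 of both groups the change of Ndufa4 was 0.16 and the call was lost (edgeR, adjusted p = 0.0897), as it was with libraries summed, at 0.21 (edgeR, adjusted p = 0.0565). The median log2 change of the 13 genes was 0.00.

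Several subunits of complex IV have isoforms with tissue-restricted use, and the widely expressed form was the higher one in each pair here. Cox6a1 averaged 203 CPM with calcitriol and 195 CPM in controls, whereas its heart and muscle form Cox6a2 averaged 1.06 CPM with calcitriol and 0.956 CPM in controls and was not tested. The hypoxia- and lung-associated form Cox4i2 averaged 0.673 CPM with calcitriol and 1.08 CPM in controls. Cox7a2 averaged 140 CPM with calcitriol and 139 CPM in controls, and its muscle form Cox7a1 averaged 2.37 CPM with calcitriol and 2.26 CPM in controls. Cox6b1 averaged 167 CPM in both groups, and the testis-associated Cox6b2 averaged 9.76 CPM with calcitriol and 8.42 CPM in controls (edgeR, adjusted p = 0.284). Cox8a, the highest nuclear subunit of this complex per kilobase, averaged 278 CPM with calcitriol and 270 CPM in controls, while Cox8b, Cox8c and Cox7b2 had 0 counts in the 22 libraries, which allows up to 0.0159 CPM over all of them. Ndufa4l2, a hypoxia-induced relative of Ndufa4, had 5 counts in all.

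Complex V had 2 higher and 2 lower genes among 16 tested, and here the most abundant one fell. Atp5b (ENSMUSG00000025393, chr10:128083273-128090391) encodes the catalytic beta subunit and had, at 744 CPM per kilobase of transcript, the highest level of any nuclear gene of the chain. It ran from 1161 to 1469 CPM with a median of 1249 with calcitriol, against 1453 to 1725 CPM with a median of 1554 in controls. In 9 of 11 calcitriol libraries it lay below every control, the exceptions being replicates 1 and 2, which overlapped the lowest controls. The log2 change was -0.27 ± 0.04 (SE; edgeR, adjusted p = 1.91e-05). Atp5a1, the alpha subunit that alternates with it in the catalytic ring, averaged 957 ± 41.8 CPM with calcitriol and 994 ± 35.1 CPM in controls (SD, n = 11 each; edgeR, adjusted p = 0.236). The summed level of the 16 genes averaged 4361 ± 175 CPM with calcitriol and 4647 ± 99.6 CPM in controls (SD, n = 11 each). Atp5b made up most of that gap: without it the sums were 3069 ± 83.5 CPM with calcitriol and 3088 ± 46.2 CPM in controls. As an unscaled share of all counts, the 16 genes held 0.425% ± 0.0191 with calcitriol and 0.475% ± 0.0127 in controls (SD, n = 11 each). That share ran from 0.395% to 0.453% with calcitriol and from 0.456% to 0.494% in controls, without overlap.

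The membrane ring of complex V is made of 1 protein encoded by 3 genes that differ only in their import peptides, and these genes did not move together. Atp5g1 ran from 37.9 to 51.9 CPM with a median of 46.9 with calcitriol, against 51.2 to 59.5 CPM with a median of 56.4 in controls. Only calcitriol replicate 2 exceeded the lowest control, replicate 4, and the log2 change was -0.28 ± 0.05 (SE; edgeR, adjusted p = 7.73e-05). Atp5g2 averaged 120 CPM with calcitriol and 116 CPM in controls, and Atp5g3 123 CPM with calcitriol and 127 CPM in controls, with adjusted p of 0.681 and 0.532 (edgeR). The difference between these genes in their change was not tested. Atp5mpl, a small membrane protein of the enzyme, ran from 62.8 to 78.6 CPM with calcitriol, median 70.9, against 53.2 to 65.3 CPM in controls, median 62.7. It was higher by 0.22 ± 0.05 (SE; edgeR, adjusted p = 0.000447). Atp5e, the epsilon subunit of the central stalk, was higher by 0.15 (edgeR, adjusted p = 0.0119). The call of Atp5e was lost without replicates 1 and 2 of both groups, at 0.12 (edgeR, adjusted p = 0.0676), and with libraries summed, at 0.15 (edgeR, adjusted p = 0.0714). Atp5s, a coupling factor with 596 counts in all, changed by -0.20 (edgeR, adjusted p = 0.503).

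**Figure D3:**
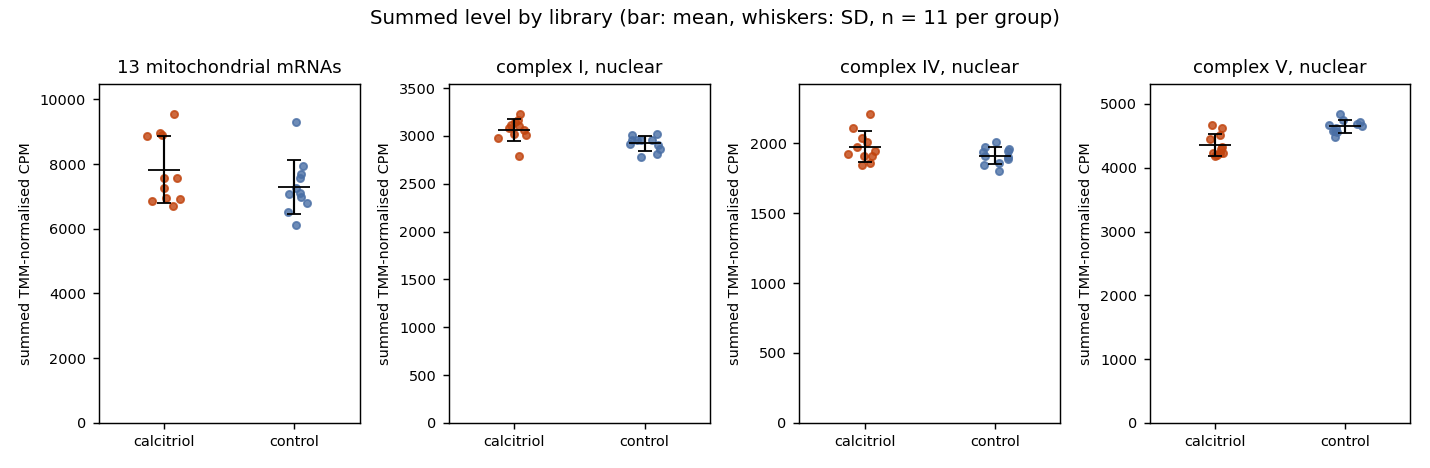
Summed TMM-normalised CPM (y axis, from 0) in each library of the 13 mitochondrial mRNAs and of the nuclear subunits of complexes I, IV and V, calcitriol left and control right, with mean and SD of 11 libraries per group. The complex V sums average 4361 CPM with calcitriol and 4647 CPM in controls, and the mitochondrial sums overlap almost wholly.

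The mitochondrially encoded mRNAs gave 1 call. Of the 13, 7 had enough counts to be tested, and of these 0 were higher and 1 was lower. The median size of the change regardless of sign was 0.11 for these 7 and 0.06 for nuclear subunits. Their libraries also spread more, with a median SD of 16.3% of the mean with calcitriol and 16.8% in controls. For nuclear subunits it was 8.20% with calcitriol and 7.04% in controls. The summed level of the 13, mostly mt-Co1, ran from 6689 to 9534 CPM with a median of 7559 with calcitriol. In controls it ran from 6110 to 9286 CPM with a median of 7107, and the groups overlapped over most of that span. The 13 mRNAs held 0.761% ± 0.0963 of all counts with calcitriol and 0.745% ± 0.0761 in controls (SD, n = 11 each). The mitochondrial ribosomal and transfer RNAs held 1.51% ± 0.380 with calcitriol and 1.58% ± 0.411 in controls.

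Counted levels differed widely between mitochondrial genes. The sequence they share with other annotated genes, given below, differed too, and its part in these levels was not tested. mt-Co1, the catalytic subunit of complex IV, ran from 5843 to 8654 CPM with a median of 6465 with calcitriol, against 5297 to 7950 CPM with a median of 6142 in controls (log2 change 0.11; edgeR, adjusted p = 0.241). It made up 87.0% ± 1.57 of mitochondrial mRNA counts with calcitriol and 86.3% ± 0.670 in controls (SD, n = 11 each), and per kilobase it stood 36.0 times above the median nuclear subunit. That total holds only 144 counts of the 5 mitochondrial mRNAs whose sequence is nearly all shared, so the percentage is of counts, not of transcripts. mt-Cytb, the cytochrome b of complex III, averaged 463 ± 76.6 CPM with calcitriol and 420 ± 51.9 CPM in controls (SD, n = 11 each; edgeR, adjusted p = 0.212). The membrane-arm core subunits of complex I followed: mt-Nd1 ran from 259 to 414 CPM with calcitriol and from 256 to 439 CPM in controls (edgeR, adjusted p = 0.897). mt-Nd5 averaged 103 ± 12.3 CPM with calcitriol and 114 ± 26.1 CPM in controls (SD, n = 11 each; edgeR, adjusted p = 0.272). mt-Nd4 averaged 57.9 CPM with calcitriol and 61.6 CPM in controls. mt-Nd6, the only mRNA encoded on the light strand, averaged 12.0 CPM with calcitriol and 12.2 CPM in controls. Control replicate 4 was the highest control library for mt-Co1, mt-Cytb, mt-Nd1, mt-Nd2, mt-Nd4 and mt-Nd5.

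The call among these genes was mt-Nd2, also of complex I. It ran from 45.8 to 81.8 CPM with a median of 55.4 with calcitriol, against 52.5 to 97.3 CPM with a median of 70.8 in controls. The groups overlapped widely, with 3 calcitriol libraries below every control, and the log2 change of -0.27 ± 0.10 (SE) stood just inside the threshold (edgeR, adjusted p = 0.0421). Leaving out any 1 of 14 libraries, calcitriol replicates 2 to 6 and 8 to 10 or control replicates 1 to 4, 7 and 8, ended the call with an adjusted p of up to 0.0897. With resembling libraries summed it was 0.141. The neighbours of mt-Nd2 on the same precursor, mt-Nd1 before it and mt-Co1 after it, changed by -0.02 and 0.11.

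The remaining 6 mitochondrial mRNAs were at or near 0, although cells with a working chain need them. Over all 22 libraries mt-Co3 had 72 counts, mt-Co2 62, mt-Atp6 9, mt-Nd3 1, and mt-Nd4l and mt-Atp8 had 0, whereas mt-Co1 had 1236385. A stretch of chromosome 1 (chr1:24611535-24616197, minus strand, GRCm38) holds near-identical copies of this part of mitochondrial DNA that GENCODE M21 annotates as pseudogenes. The 60-base stretches below, from GENCODE M21 transcripts, show how alike they are. The mt-Nd3 and mt-Co2 stretches are bases 1 to 60 of each mRNA and the mt-Co1 stretch is bases 1063 to 1122. Capitals mark the base that differs between a gene and its copy.
mt-Co2: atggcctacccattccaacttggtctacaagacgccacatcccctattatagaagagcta
Gm28661: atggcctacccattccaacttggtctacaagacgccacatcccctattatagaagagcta
mt-Nd3: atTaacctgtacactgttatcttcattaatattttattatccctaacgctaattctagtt
Gm28438: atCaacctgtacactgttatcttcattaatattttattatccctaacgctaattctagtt
mt-Co1: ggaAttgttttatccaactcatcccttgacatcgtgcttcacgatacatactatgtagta
Gm29216: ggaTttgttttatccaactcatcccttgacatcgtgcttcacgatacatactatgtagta
Copies of mt-Co2 (Gm28661, chr1:24614885-24615565) and mt-Co3 (Gm28437, chr1:24613189-24613971) matched their genes without a mismatch over 681 and 783 aligned bases. The copy of mt-Nd3 (Gm28438, chr1:24612775-24613119) had 1 mismatch in 345, and the partial copy of mt-Co1 (Gm29216, chr1:24615706-24616197) had 1 in 483.

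The genes with few counts are, with 1 exception, those whose sequence is nearly all shared with another annotated gene. Of the 50-base stretches of mt-Co2, mt-Co3, mt-Atp6, mt-Nd4l and mt-Nd3, 100%, 99.9%, 99.5%, 98.8% and 98.0% also occur in another annotated gene. The share was 62.2% for mt-Nd4, 51.1% for mt-Co1, 8.19% for mt-Nd2, 7.61% for mt-Nd5 and 0% for mt-Nd1, mt-Nd6 and mt-Cytb. The 5 genes above 90% had 144 counts together, of 1426349 for all 13. mt-Atp8 is the exception, since none of its 50-base stretches occur elsewhere in the annotation, but it overlaps mt-Atp6 and had 0 counts. On mitochondrial DNA it starts between mt-Co2 and mt-Atp6. The search covered annotated transcripts only, so it left out any unannotated bases between the chromosome 1 copies of those genes. The mt-Atp6 copy ends at chr1:24614651 and the mt-Co2 copy starts at chr1:24614885. Whether the bases between them hold a copy of mt-Atp8 was not tested. The copies themselves did not hold the missing counts, with 169 for Gm28437, 117 for Gm28438, 97 for Gm28661 and 20 for Gm10925, the copy of mt-Atp6. How reads that fit several places were treated is not given in the sources used here, and its part in these low counts was not tested. On the mitochondrial side complex IV is thus represented by mt-Co1 alone and complex V by no gene.

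**Figure D4:**
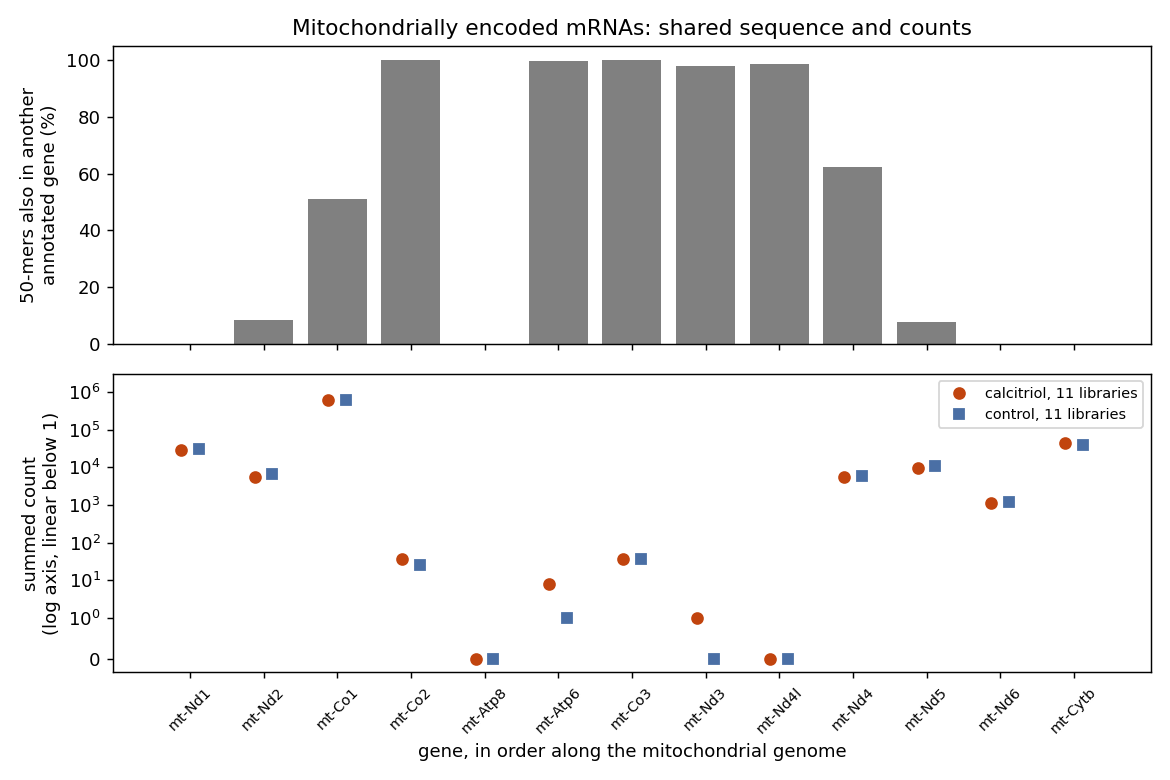
Top, percent of each mitochondrial mRNA's 50-base stretches that also occur in another annotated gene; bottom, its summed count over the 11 calcitriol and the 11 control libraries (log axis, linear below 1), in order along the mitochondrial genome. The 5 genes above 90% shared and mt-Atp8 have at most 72 counts over both groups, while the other 7 have from 2302 to 1236385.

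Genes outside the chain that serve it included more lower than higher ones in several lists. Among mitochondrial ribosomal proteins, which translate the 13 mRNAs, 2 of 77 tested were higher and 21 lower, with a median log2 change of -0.10. Mrpl38 and Mrpl24 changed by -0.32 and -0.20 (edgeR, adjusted p = 3.28e-05 and 0.000344), while Mrpl33 rose by 0.41 (edgeR, adjusted p = 1.15e-07). Among genes of mitochondrial DNA upkeep, transcription and RNA processing, 1 of 28 was higher and 6 lower. The transcription factor Tfam and the polymerase Polrmt did not pass the test, with log2 changes of 0.05 and -0.06 (edgeR, adjusted p = 0.566 and 0.677). The RNA-stabilizing factor Lrpprc fell by 0.18, the rRNA methyltransferase Tfb1m fell by 0.43 and the RNA helicase Supv3l1 fell by 0.30, and Polg, the DNA polymerase, rose by 0.17.

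Enzymes that feed the chain showed 1 higher and 8 lower genes among 17 of the citrate cycle and pyruvate dehydrogenase, with a median log2 change of -0.12. Dlat of pyruvate dehydrogenase changed by -0.29 and fumarase Fh1 by -0.25 (edgeR, adjusted p = 0.000350 and 0.000254), and Suclg1, a subunit of succinyl-CoA ligase, rose by 0.19 (edgeR, adjusted p = 0.00497). Among electron carriers and coenzyme Q synthesis, 0 of 19 were higher and 4 lower, namely the methyltransferases Coq3 (-0.48) and Coq5 (-0.24), the coenzyme Q-binding Coq10b (-0.45) and cytochrome c, Cycs (-0.16; edgeR, adjusted p = 0.0483). Chaperones and proteases of the organelle had 2 higher and 7 lower genes of 19. Hspa9 averaged 358 CPM with calcitriol and 484 CPM in controls and Hspd1 234 CPM with calcitriol and 335 CPM in controls, whereas the cristae organizer Immt averaged 281 CPM with calcitriol and 219 CPM in controls (edgeR, adjusted p = 3.95e-06, 3.17e-05 and 6.76e-08).

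Assembly factors of other complexes gave a few calls in both directions. For complex IV, 1 of 21 was higher, Pet100 (0.22), and 1 lower, Cox15, which makes haem A (-0.17). For complexes II, III and V, 1 of 13 was higher, Sdhaf4 (0.46), and 2 lower, Uqcc2 (-0.23) and Sdhaf1 (-0.22). Regulators of mitochondrial biogenesis had 1 higher gene of 11, Gabpb2 (0.22), and 1 lower, the deacetylase Sirt3 (-0.30). The factors named for the motifs above did not pass, Nrf1 changing by 0.11 and Gabpa by 0.12 (edgeR, adjusted p = 0.0666 and 0.0976), nor did the nuclear receptor Esrra, which changed by -0.03. The coactivator Ppargc1a had 3 counts in all, and Ppargc1b had 242 and was not tested. Mitophagy genes had 3 higher and 2 lower of 8, among them the kinase Pink1, which rose by 0.34 (edgeR, adjusted p = 0.000367), the adaptor Tax1bp1, which rose by 0.18, and the prohibitin Phb2, which fell by 0.17. Against 16.1% higher and 15.5% lower over all genes, these shares describe each list and were not tested.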

How the data were processed

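RNA was measured by sequencing in 22 libraries made with a stranded total RNA kit of the globin type, per the labels' protocols. The values the authors deposited are raw counts of each Ensembl gene in each library, and the submitters' processing notes name STAR 2.7.10a, HTSeq 0.13.5 and the build GRCm38. The sources used here do not give their settings, strand handling or annotation, so reads of overlapping or antisense genes cannot be told apart. Symbols and coordinates came from GENCODE M21 on the same build, where mt-Cyb is mt-Cytb, and 259 rows had no symbol there. The members, gene lists and tests were chosen with earlier results of these data known.

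The filter filterByExpr of edgeR (version 4.0.16, under R 4.3.3) kept 11905 genes holding at least 99.7% of each library's counts, and libraries were scaled with TMM factors. Calcitriol was compared with control by the quasi-likelihood F test of edgeR (two-sided, robust, no covariate), with Benjamini-Hochberg adjustment over all genes tested and a threshold of 0.05. Levels are TMM-normalised CPM, and levels per kilobase use the annotated principal transcript, the longest where several are ranked alike. Of simulated libraries over 11801 genes with 195 changed, the test found 95.9% of genes with a log2 change of 1 and 68.0% of those with 0.5, while 4.76% of its calls were false. These rates hold for independent libraries. Sequence sharing counts the 50-base stretches of a gene's transcripts that any other annotated transcript holds on either strand. A count of 0 was read as allowing up to 3 counts, and such limits cover counting error only.

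Alternatives were other scaling (RLE, nuclear genes, upper quartile), other filters (none, or 5 CPM in 11 libraries), DESeq2 1.42.0, limma-voom 3.58.1 with and without quality weights, a fold threshold of 1.2, libraries of a group that are each other's best correlated partner summed, giving 7 samples per group, leaving out each library and, chosen after seeing the data, leaving out 4 libraries. Genes were named by a rule: all 13 mitochondrial mRNAs, up to 12 called nuclear genes in each direction, isoform families, the top gene of a complex by level, and up to 3 called genes of each other list. Other names in the text, among them neighbours, Ndufaf5, Atp5a1, the Sdh and Uqcrc genes and the sex-linked genes, were chosen after their values were seen.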

Additional observations from a re-analysis of the deposited data

How the results depend on the processing

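Of the 19 called genes, Ndufb11 and Ndufa1 were called under all 33 alternatives. With these included, 10 were called under every alternative other than the fold threshold of 1.2, and 15 were called whichever library was left out. The fold threshold left 2 genes higher, both nuclear subunits, and 0 lower. With resembling libraries summed, 4 genes were lower in place of 10, 5 nuclear subunits higher and 2 lower, and 0 mitochondrial mRNAs lower. With no filter on low counts, which adjusts over more genes, 5 genes were lower, 3 of them nuclear subunits and 0 mitochondrial, and mt-Nd2, Ndufs7, Uqcrq, Ndufa9 and Sdhd were lost. Quality weights made 1 mitochondrial mRNA higher, mt-Cytb (limma-voom, adjusted p = 0.0419). Leaving out single libraries gave 9 to 11 genes higher and 7 to 12 lower, 8 to 10 nuclear subunits higher and 5 to 9 lower, 0 mitochondrial mRNAs higher and 0 to 1 lower, and a mitochondrial mRNA share of counts from 0.00295 to 0.0346 percentage points above controls. Leaving out the 4 libraries apart on component 2 lost the calls of Ndufa4 and Atp5e.

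Sign changes were seen for uncalled genes near zero on the log2 scale. mt-Nd1 gave 0.043 with quality weights and 0.012 with resembling libraries summed, and -0.065 to 0.037 without single libraries. Also without single libraries, mt-Nd6 gave -0.090 to 0.00011, Cox7b -0.043 to 0.0041, Cox6b1 -0.013 to 0.018, Cox7a1 -0.078 to 0.14 and Cox7a2 -0.025 to 0.020. Cox6b1 gave -0.0029 with resembling libraries summed. Cox7a1 gave 0.0019 with RLE, 0.0064 with no filter and 0.018 with DESeq2, and Cox7a2 gave 0.0016, 0.0040 and 0.00019, then 0.00050 with the filter at 5 CPM and 0.0024 with quality weights. The cause was not tested. No paired or blocked analysis was run because the labels give no replicate numbers, and the numbers used here follow accession order. Scores on component 2 mostly followed that order in both groups. Replicates 5 and 6 lay at -9.93 and -11.2 with calcitriol and at -8.69 and -9.60 in controls, and replicate 9 at -7.75 and -7.76. The test has no term for such blocks, and what they stand for was not tested. The lowest-level genes, such as Atp5s and Ndufaf6, have the widest errors.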
